A study of Mus musculus with 231 samples.

Results

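The microRNA gene Mir21a gives 2 mature products from 1 hairpin, miR-21a-5p (mmu-miR-21a-5p) and miR-21a-3p (mmu-miR-21a-3p), and both were followed through every library of the series. They were found by name, as 2 of the 1863 mature miRNAs in the count table of the training cohort, 2 of 1895 in its table of deposited CPM (counts scaled to library size) and 2 of 1817 in the table of the validation cohort. In mouse peripheral blood mononuclear cells (PBMC) miR-21a-5p was the most abundant mature miRNA and miR-21a-3p a minor one, with a median of 3684 miR-21a-5p reads for each miR-21a-3p read. The level of miR-21a-5p was called as different between the 2 arms of the study at none of months 0 to 6. miR-21a-3p was above every control of the same month in the last library of 6 of 7 mice carrying the fusion gene. For 1 of these libraries, of month 6.5, the controls were of month 6, and with raw library sizes 5 of 7 were above. Without mice 3334 and 3335, whose labels are in doubt, 5 of 6 were above. Among 446 miRNAs tested, 9.64% were likewise above every control in at least 6 mice.

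A microRNA is cut from a hairpin as a duplex of 2 short strands. One strand, the guide, is usually kept in the silencing complex and pairs with messenger RNAs through its seed, bases 2 to 8, and the other, the passenger, is usually degraded. miR-21 is a classical oncogenic and inflammatory microRNA, abundant in myeloid cells and lymphocytes and raised in many tumours. Its guide strand is the 5p product.

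The sequences are shown because the counting of a miRNA rests on its letters, and because near copies could share reads. They are from RefSeq, build GRCm38.p6, written 5′ to 3′ with the seed in capitals.
miR-21a-5p: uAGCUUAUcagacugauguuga
miR-21a-3p: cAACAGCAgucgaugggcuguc
miR-21b: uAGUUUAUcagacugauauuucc
miR-21c: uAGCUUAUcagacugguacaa
miR-21a-5p lies at chr11:86584120-86584141 and miR-21a-3p at chr11:86584082-86584103, both on the minus strand. Against miR-21a-5p, counting from its 5′ end, miR-21b carries C4U, G18A, G21U and A22C, so that its seed differs. miR-21c carries A16G, G18A, U19C, U20A and G21A and keeps the seed. Of 1679 mature names in the RefSeq table only miR-21c shared the seed of miR-21a-5p, and none shared that of miR-21a-3p. miR-590-5p has no entry there, so its seed was not compared. In mm9, the build named in the study's methods (the processing notes name GRCm38), the hairpin gene Mir21 lies at chr11:86397569-86397660 on the minus strand, inside the last exon and the 3′ untranslated region of 1 of 8 annotated transcripts of Vmp1, a gene of autophagy that is transcribed in the same direction.

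MicroRNA sequencing was performed on PBMC of C57BL/6 conditional Cbfb-MYH11 (CM) knock-in mice (Cbfb56M/+ with Mx1-Cre), in which poly(I:C) induces the leukemogenic fusion through Cre, and of similarly treated littermates (Ctrl). Mice received 7 doses of 14 mg/kg at 6 to 8 weeks of age, and because Mx1-Cre responds to interferon its action is not limited to 1 blood lineage. The training cohort held 7 CM mice (genotype label CHW, 53 libraries) and 7 Ctrl mice (labels CW in 4, HW in 2 and WT in 1, 76 libraries), bled before induction (month 0) and monthly up to month 10 or until moribund. The validation cohort held 10 CM mice (60 libraries) and 6 Ctrl mice (42 libraries) at points labelled 1 to 7 and L. The series' design text gives 9 CM and 7 Ctrl validation mice instead, and the sample labels were followed, in which all 10 CM mice have the genotype label CHW and no Ctrl mouse has it. The arm of 1 validation mouse may therefore be in doubt in the validation comparisons of the arms. The validation Ctrl mice had the labels CW in 3, HW in 2 and WT in 1. By sex the training cohort held 4 female and 3 male CM mice and 2 female and 5 male Ctrl mice. The validation cohort held 5 female and 5 male CM mice and 3 female and 3 male Ctrl mice. The labels do not explain the genotype codes or the letter L. They describe Ctrl littermates as lacking the transgene, whereas the methods list Cbfb56M/+ littermates among the controls.

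The training libraries held 1792809 to 7958411 counts. In the validation cohort the 12 libraries of point 5 held 1645456 to 5445215 reads and the other 90 only 1744 to 76906. Pan-leukocyte miR-142a was present in every training group, and so were the erythroid, myeloid and lymphocyte markers. The running numbers in the labels of CM mouse 3334 and Ctrl mouse 3335 change places at month 6. Whether the running number or the mouse number follows the animal is not known, so libraries of both mice may be in the wrong arm. Results were therefore also computed without both mice. Values that this moved in call, direction or size by over 1.5 times are given beside them or with the alternatives. A training time labelled T6p5 was read as month 6.5.

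In the training libraries miR-21a-5p held 5.06% to 20.3% of all counts, with a median of 12.7%. It ranked second in 9 libraries, lower in 5 and first in all the others. let-7i-5p, at a mean of 7.08%, and the erythroid miR-451a, at 5.88%, came next behind its own mean of 12.6%. The 5 libraries with the lower ranks were those of CM mouse 3336 at months 1 and 6.5, CM mouse 3368 at month 1, Ctrl mouse 3349 at month 2 and Ctrl mouse 3342 at month 8. Its count was never under 91051, so counting error was small against the spread between mice.

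miR-21a-3p had 45 to 361 counts per library, with a median of 145. Its level was 13.8 to 84.6 CPM, with a median of 33.1, and its rank 170 to 285. The exact Poisson interval of the lowest count, 45, ran from 32.8 to 60.2 counts, and it covers counting error only. The ratio of the 2 strands, 920 to 6576 reads of miR-21a-5p per read of miR-21a-3p, showed how far the guide strand prevailed in every library. Ligation and amplification differ between sequences, so the ratio describes reads and not molecules.

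The 2 training tables did not give miR-21a-5p the same level. Its deposited CPM was 0.489 to 0.896 of the CPM scaled from the counts (median 0.710), whereas miR-21a-3p stood at 0.851 to 1.30 (median 1.05). Over the training libraries the log2 levels of the 2 tables had a Pearson r of 0.87 for miR-21a-5p and 0.98 for miR-21a-3p, as a description over libraries that share mice. The near copies differed more. miR-21b had 0 to 9 counts in the count table but 5.14 to 58.4 CPM in the deposited one, where its log2 level had an r of 0.74 with miR-21a-5p, against 0.17 in the counts. miR-21c had 1 to 41 counts. Reads of miR-21b and miR-21c are uncertain, since these sequences share all but 4 or 5 bases with miR-21a-5p, and even in the deposited table both stayed under 0.03% of its reads (0.0272% and 0.00739%). miR-590-5p, often grouped with miR-21 by its seed, is not listed in the counts and was above 0 in 3 deposited libraries.

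**Figure D1:**
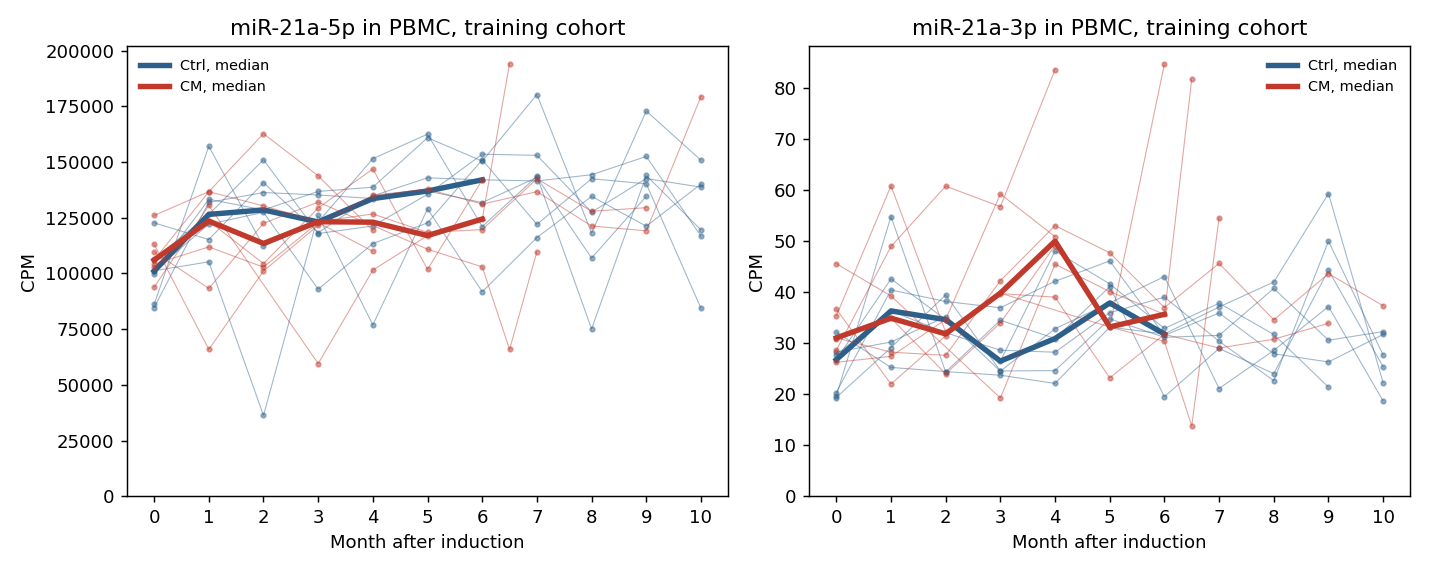
Level of miR-21a-5p (left, CPM) and miR-21a-3p (right, CPM) by month after induction in the training cohort, with 1 thin line and its points per mouse and the median of each arm drawn thick over months 0 to 6. The arms overlap for miR-21a-5p, while 3 CM libraries at months 4, 6 and 6.5 reach 81.7 to 84.6 CPM of miR-21a-3p.

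The first question was whether the guide strand differed between the arms before or after induction. At month 0 miR-21a-5p was at 93770 to 126000 CPM in CM mice (median 106000) and 84690 to 122700 CPM in Ctrl mice (median 101100). The arms overlapped almost entirely, with a log2 fold change of 0.08 ± 0.10 (SE, adjusted p = 0.771, edgeR quasi-likelihood test, n = 7 and 7). Neither strand was called there, as 0.209% of the 478 miRNAs tested were.

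At month 1 miR-21a-5p was at 65890 to 136700 CPM in CM mice (median 123500) and at 105200 to 157000 CPM in Ctrl mice (median 126500). The log2 difference, CM minus Ctrl, was -0.19 ± 0.18 (edgeR adjusted p = 0.454). Neither strand was called, although 27.5% of miRNAs were, and the erythroid list was among them with 5 of 5 members higher in CM. At month 2, where 13.5% of miRNAs were called and neither strand was, the medians of miR-21a-5p were 113400 CPM in CM and 128500 CPM in Ctrl, with a fold change of 0.01 ± 0.26 (edgeR adjusted p = 0.986). One Ctrl library, mouse 3349, stood far below the other 6 at 36250 CPM.

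At month 3 miR-21a-5p was at 59520 to 143800 CPM in CM (median 123200) and 92910 to 136800 CPM in Ctrl (median 123100). Both arms had nearly the same median, and the fold change was 0.02 ± 0.16 (edgeR adjusted p = 0.969). At month 4 the medians were 123000 CPM in CM and 133600 CPM in Ctrl, with a fold change of 0.05 ± 0.17 (edgeR adjusted p = 0.920).

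Month 5 had the lowest unadjusted p for miR-21a-5p. The 5 CM libraries were at 101800, 110900, 117000, 118400 and 137800 CPM, and the 7 Ctrl libraries ran from 122700 to 162500 CPM (median 137000). In 4 of the 5 CM libraries the level lay below every Ctrl library, and the highest, of mouse 3368, lay within the Ctrl range. The log2 fold change was -0.23 ± 0.10 with an unadjusted p of 0.0354 and an adjusted p of 0.209 (edgeR), and 0.0% of 505 miRNAs were called at that month, where 21.6% had an unadjusted p under 0.05. At month 6 the CM libraries were at 102900, 119700, 124400, 131100 and 142000 CPM against 91740 to 153500 CPM in Ctrl (median 142000). The CM values lay within the Ctrl range, with a fold change of -0.14 ± 0.18 (edgeR adjusted p = 0.812) and 0.0% of 444 miRNAs called. Without mice 3334 and 3335 the fold changes of miR-21a-5p ran from -0.27 at month 5 to 0.0781 at month 4, with 0.0706 at month 3 and -0.0533 at month 6, and none was called (edgeR adjusted p = 0.156 to 0.993).

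The passenger strand was compared in the same fits. At month 0, before induction, miR-21a-3p was at 26.2 to 45.5 CPM in CM (median 31) and 19.3 to 32.1 CPM in Ctrl (median 26.8). The CM mice were on average higher, by a log2 fold change of 0.40 ± 0.17, with an unadjusted p of 0.0280 that did not pass adjustment (edgeR adjusted p = 0.319). Without mice 3334 and 3335 it was 0.28 ± 0.16 with an unadjusted p of 0.110 (edgeR adjusted p = 0.397). By month 1 the arms had a fold change of only -0.01 ± 0.25 in miR-21a-3p (edgeR adjusted p = 0.969), and by month 2 it stood at 0.09 ± 0.22 (adjusted p = 0.792). Without mice 3334 and 3335 that of month 2 was 0.05 (edgeR adjusted p = 0.926).

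At month 3 the CM libraries held 19.2 to 59.2 CPM of miR-21a-3p (median 39.8) and the Ctrl libraries 23.7 to 36.9 CPM (median 26.5). Of the 7 CM libraries 5 lay above every Ctrl library, and that of mouse 3334 lay below all of them. The log2 fold change was 0.58 ± 0.21, with an unadjusted p of 0.0127 and an adjusted p of 0.0545 (edgeR), so that neither strand was called among 22.0% of miRNAs that were. Without mice 3334 and 3335 the fold change was 0.67 ± 0.18 and was called (edgeR adjusted p = 0.0223), as it was by DESeq2 at 0.57 ± 0.21 (adjusted p = 0.0290) and by edgeR on reads recovered from the deposited CPM at 0.61 ± 0.20 (adjusted p = 0.0316). Leaving out Ctrl mouse 3342 or 3346 alone also brought the call (edgeR adjusted p = 0.0418 and 0.0494).

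At month 4 the 6 CM libraries held 39.0 to 83.5 CPM of miR-21a-3p (median 49.95) and the 7 Ctrl libraries 22.1 to 48.02 CPM (median 30.9). Of the CM libraries 4 lay above every Ctrl library, and the remaining 2 lay among the highest Ctrl values. The log2 fold change of 0.79 ± 0.27 was the widest of the 7 months for either strand, with an unadjusted p of 0.00950 and an adjusted p of 0.140 (edgeR), and neither strand was called among the 0.837% of miRNAs that were. It was called when all training libraries shared 1 fit, at 0.72 ± 0.23 (edgeR adjusted p = 0.0303), and in an exact permutation test of the deposited CPM (two-sided, difference 0.76, p = 0.00641, adjusted p = 0.0449 over the 7 months). Without CM mouse 3338, which had the highest level, it was 0.51 (edgeR adjusted p = 0.408).

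At month 5 no such difference was seen. The 5 CM libraries held 23.2, 33.1, 33.2, 40.1 and 47.7 CPM of miR-21a-3p and the Ctrl libraries 33.1 to 46.1 CPM, a log2 difference of -0.08 ± 0.17 (edgeR adjusted p = 0.803, and -0.14 without mice 3334 and 3335). At month 6 the CM libraries held 30.3, 31.7, 35.6, 36.9 and 84.6 CPM against 19.5 to 43.01 CPM in Ctrl. A single library, that of mouse 3341 and the last of that mouse, stood above all others, and the fold change was 0.43 ± 0.31 (edgeR adjusted p = 0.714). Without mouse 3341 it was -0.02, and without mice 3334 and 3335 it was 0.66 ± 0.38 (edgeR adjusted p = 0.382). The mice differ between these months, since 2 CM mice, 3338 and 3357, had their last library at month 4.

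**Figure D2:**
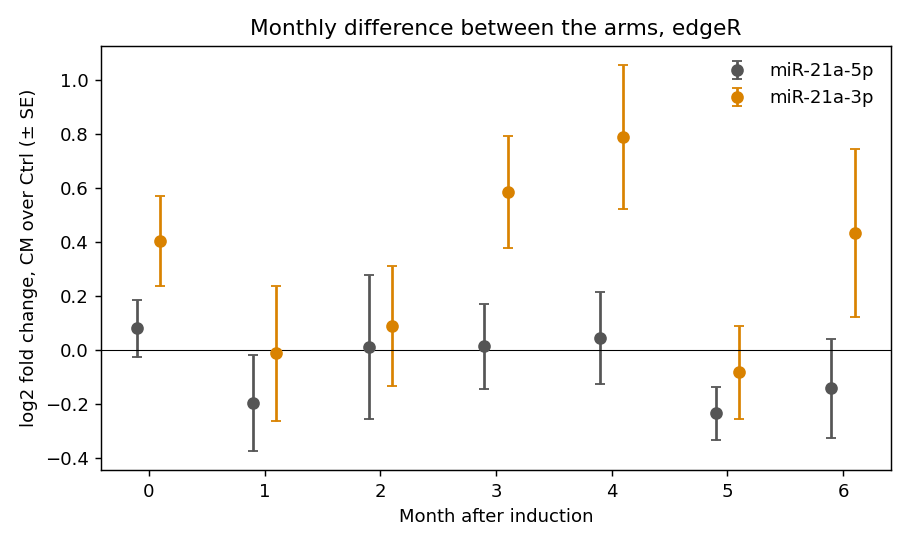
Log2 fold change of CM over Ctrl (vertical axis, points with ± SE bars) from the edgeR fit of each month from 0 to 6 (horizontal axis) for miR-21a-5p and miR-21a-3p. miR-21a-5p stays between -0.23 and 0.08, and miR-21a-3p reaches 0.58 at month 3 and 0.79 at month 4, where neither passed the adjusted threshold.

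Lists of miRNAs known as markers of blood cell types were compared in months 3 and 4, where 22.0% and 0.837% of all miRNAs were called. At month 3 the list of 5 erythroid miRNAs had 4 members higher in CM, with summed levels of 47920 to 97020 CPM against 37370 to 62710 CPM in Ctrl. The platelet and endothelial list, led by miR-126a, had 2 of 3 tested members higher at month 3, with summed levels of 219.6 to 2420 CPM in CM against 145.9 to 199.6 CPM in Ctrl, and 2 of 4 higher at month 4, at 364.9 to 2965 CPM against 165.5 to 321.7 CPM. At month 4 none of the 5 erythroid, 4 lymphocyte and 2 myeloid members was called, with erythroid sums of 29300 to 158900 CPM in CM against 56870 to 92560 CPM in Ctrl and lymphocyte sums of 7703 to 58530 CPM against 17990 to 92340 CPM. Of the 2 myeloid members 1 was higher at month 3, with sums of 5190 to 11770 CPM in CM and 4358 to 7260 CPM in Ctrl. miR-199a-3p was at 0 in every library of month 4. The lymphocyte list summed to 24150 to 55030 CPM in CM and 53090 to 92080 CPM in Ctrl at month 3, with 1 of 4 members lower. The authors reported that CM raises miR-126 in blood and in stem and progenitor cells. The list led by miR-126a therefore does not mark platelets or endothelium alone here. The part of these lists in the level of miR-21a-3p was not tested, and in bulk PBMC fewer cells of a type and less RNA per cell cannot be told apart.

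To use all months of a mouse once, the log2(CPM + 1) of each strand was averaged over months 1 to 6. For miR-21a-5p the mouse means ran from 16.65 to 17.09 in CM (median 16.77) and from 16.41 to 17.11 in Ctrl (median 17.03). The arms overlapped and differed by -0.09 (95% interval -0.29 to 0.15, exact two-sided permutation test, p = 0.440, n = 7 and 7). For miR-21a-3p they ran from 4.99 to 5.96 in CM (median 5.29) and from 4.78 to 5.32 in Ctrl (median 5.09). Of the CM mice 3 lay above every Ctrl mouse, and the arms differed by 0.26 (interval -0.0086 to 0.55, exact permutation p = 0.0577, adjusted p = 0.173 over the 6 mouse values tested). Without mice 3334 and 3335 it was 0.30 (exact permutation p = 0.0519, adjusted p = 0.156). Without CM mouse 3336 the difference was 0.31 and was called (exact permutation adjusted p = 0.0385).

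The ratio of the strands, as log2 of miR-21a-5p over miR-21a-3p counts, ran from 11.15 to 11.82 in CM mice (median 11.54) and from 11.49 to 12.28 in Ctrl mice (median 11.90). Of the CM mice 2 lay below every Ctrl mouse. The mean ratio was 11.54 ± 0.22 in CM and 11.89 ± 0.25 in Ctrl (SD, n = 7 each), a difference of -0.35 (interval -0.63 to -0.080, exact permutation p = 0.0169, adjusted p = 0.101), and -0.38 without mice 3334 and 3335 (exact permutation adjusted p = 0.156). Without CM mouse 3336 it was -0.40 and without Ctrl mouse 3349 -0.42, both called (exact permutation adjusted p = 0.0385 and 0.0280). With every month of each mouse in the mean the difference was -0.40 and passed adjustment (exact permutation adjusted p = 0.0175), and so did miR-21a-3p at 0.30 (adjusted p = 0.0332). These wider means set months 7 to 10, which 7 or 6 Ctrl mice and at most 3 CM mice reached, beside the earlier ones.

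The titles of training libraries also carry a G number from 1 to 7, which is not explained. Within G numbers, over months 1 to 6, the CM minus Ctrl difference of miR-21a-3p ran from -0.07 to 0.47 and was above 0 in 5 of 7, that of miR-21a-5p from -0.37 to 0.24 and above 0 in 2 of 7, and that of the ratio from -0.77 to 0.26 and above 0 in 1 of 7. Month by month the G numbers could hardly be compared, since only 1 of them held both arms at month 3 and 0 at month 4. With the G number as a covariate, the fold change of miR-21a-3p at month 3 was -0.36 ± 0.49 (edgeR adjusted p = 0.734), a value that rests on that single G number, and at month 4 the G number and the arm cannot be told apart.

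The change of the strands relative to each other was set beside that of other hairpins with both strands tested. At month 4 the fold change of miR-21a-3p exceeded that of miR-21a-5p by 0.74, at percentile 92.7 among the hairpins, of which 9 were higher. At month 6 the excess was 0.57, at percentile 93.9 with 7 hairpins higher. At months 0 and 3 it was 0.32 and 0.57, each at percentile 83.9. At months 1, 2 and 5 it was 0.18, 0.08 and 0.15, at percentiles 61.2, 51.6 and 66.9. This is a description of where the hairpin lay among all of them.

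Slopes over months 0 to 6 were fitted within each mouse. The slopes of miR-21a-5p were above 0 in each of the 7 Ctrl mice, at 0.04 to 0.09 on the log2 scale per month, and in CM mice ran from -0.0084 to 0.11. The mean slopes were 0.0316 ± 0.0414 in CM and 0.0608 ± 0.0162 in Ctrl (SD), a difference that the exact permutation test did not call (-0.0292, p = 0.107, adjusted p = 0.214). Without CM mouse 3368, which had the steepest slope of miR-21a-5p, it was -0.0429 and was called (exact permutation adjusted p = 0.0140). For miR-21a-3p 3 CM mice, 3338, 3357 and 3341, had the steepest slopes at 0.32, 0.29 and 0.18 per month, and CM mouse 3370 the lowest at -0.10. The mean slopes of miR-21a-3p were 0.11 ± 0.16 in CM and 0.05 ± 0.03 in Ctrl (exact permutation p = 0.298, adjusted p = 0.357).

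The next question was how far each strand moved from the level before induction. In Ctrl mice the poly(I:C) injections lay between months 0 and 1. miR-21a-5p went from a median of 101100 CPM to 126500 CPM there and was higher in 6 of 7 mice, with a log2 fold change of 0.30 ± 0.12 and an unadjusted p of 0.0247 (edgeR adjusted p = 0.280). miR-21a-3p went from a median of 26.8 CPM to 36.3 CPM in Ctrl, higher in 6 of 7 mice, with a fold change of 0.52 ± 0.19 and an unadjusted p of 0.0139 (edgeR adjusted p = 0.217). Neither was called, and 0.63% of miRNAs were.

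In CM mice the same interval gave miR-21a-5p 0.09 ± 0.17 (edgeR adjusted p = 0.766), higher in 5 of 7 mice, and miR-21a-3p 0.18 ± 0.23 (edgeR adjusted p = 0.669), higher in 4 of 7, with 12.7% of miRNAs called. Without mice 3334 and 3335 these changes were 0.04 and 0.27 (edgeR adjusted p = 0.911 and 0.487). The test of the difference between the arms called neither strand, at -0.17 ± 0.19 for miR-21a-5p and -0.32 ± 0.28 for miR-21a-3p (edgeR interaction, adjusted p = 0.616 and 0.50, and -0.23 and -0.20 without mice 3334 and 3335), where 8.46% of miRNAs were called. For the passenger strand at months 3 and 4 the interactions were 0.19 ± 0.27 and 0.44 ± 0.30 (edgeR adjusted p = 0.762 and 0.525, with 2.33% and 0.378% of miRNAs called), and 0.33 and 0.51 without mice 3334 and 3335 (edgeR adjusted p = 0.446 and 0.571). So the difference in miR-21a-3p between the arms at those months was not shown to differ from that at month 0, which was itself not called.

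The last library of each CM mouse, at month 4 to 10, was set against month 0 and against Ctrl. The 3 highest levels of the passenger strand in the training cohort were last libraries, those of mice 3341, 3338 and 3334, while mice 3357, 3368 and 3370 each had a higher level in an earlier month. In mice 3338 and 3357, whose last library was at month 4, miR-21a-3p was at 83.5 and 50.8 CPM. Mouse 3341 held 84.6 CPM at month 6, mouse 3334 held 81.7 CPM at month 6.5 and mouse 3336 held 54.5 CPM at month 7. At month 6.5 mouse 3336 had held 13.8 CPM, the lowest level of the training cohort. Mouse 3370 held 33.9 CPM at month 9, and mouse 3368 held 37.3 CPM at month 10. The same mice had 26.2 to 45.5 CPM at month 0. Of the 7 mice 6 were higher than at month 0, each of the 6 ended above every Ctrl library of the same month (of month 6 for mouse 3334), and mouse 3370 ended within the Ctrl range. With raw library sizes 5 of 7 were above, and in the deposited CPM 6 of 7. Without mice 3334 and 3335 it was 5 of 6, and for miR-21a-5p 1 of 6. Among 446 miRNAs tested, 9.64% were likewise above every Ctrl library of the month in at least 6 mice.

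Against month 0 the log2 fold change of miR-21a-3p in the last CM libraries was 1.03 ± 0.29 (edgeR adjusted p = 0.0109). Both strands were called, in a comparison in which 39.0% of 446 miRNAs were. With the mouse as a block the change of miR-21a-3p was 0.94 ± 0.29 (edgeR adjusted p = 0.0379), and without mice 3334 and 3335 it was 0.99 ± 0.29 (adjusted p = 0.0216). Without mouse 3338 it was 0.86 ± 0.31 and just missed the threshold (edgeR adjusted p = 0.0515). In an exact sign-flip test over the 7 mice the mean change was 0.78 ± 0.58 (SD, two-sided p = 0.0313, adjusted p = 0.125 over 12 tests, of which the smallest possible p was 0.0156).

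For miR-21a-5p the last CM libraries held 194200 CPM in mouse 3334, 179400 in mouse 3368, 142000 in mouse 3341, 129500 in mouse 3370, 119300 in mouse 3338, 109900 in mouse 3357 and 109800 in mouse 3336. Only those of mice 3334 and 3368 lay above every Ctrl library of the month, that of mouse 3336 lay below all of them, and 4 lay within. The log2 fold change against month 0 was 0.53 ± 0.17 (edgeR adjusted p = 0.0241). It was not called with the mouse as a block (0.49 ± 0.19, edgeR adjusted p = 0.0746) or without mice 3334 and 3335 (0.35 ± 0.15, edgeR adjusted p = 0.102). Leaving out CM mouse 3334, 3336, 3341, 3368 or 3370 alone also ended the call, at adjusted p of 0.0554 to 0.102.

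Age moved with this comparison. In Ctrl mice from month 0 to month 6 miR-21a-5p went from a median of 101100 CPM to 142000 CPM, higher in 6 of 7 mice, by 0.44 ± 0.15 on the log2 scale (edgeR adjusted p = 0.0511), which became a call without Ctrl mouse 3349 (0.55, adjusted p = 0.0122). miR-21a-3p went from a median of 26.8 CPM to 31.8 CPM, higher in 5 of 7, with a fold change of 0.40 ± 0.18 (edgeR adjusted p = 0.118). Neither was called, among 20.5% of miRNAs that were. In the last CM libraries, time since induction and disease cannot be told apart by the change from month 0, and the Ctrl libraries of the same month are the closer reference.

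**Figure D3:**
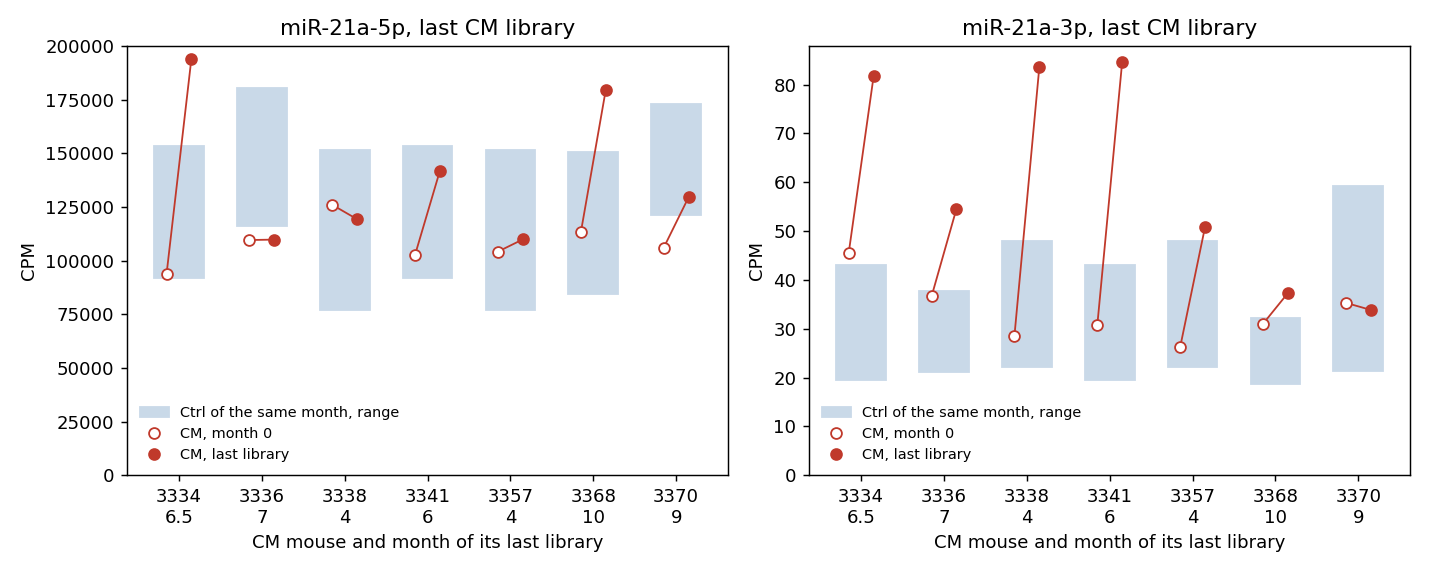
Levels of miR-21a-5p (left, CPM) and miR-21a-3p (right, CPM) for each of the 7 CM mice at month 0 (open circle) and in the last library (filled circle), with the range of Ctrl libraries of the same month as a blue bar. Under each mouse number stands the month of its last library. For miR-21a-3p 6 of 7 filled circles lie above the bar, and for miR-21a-5p 2 of 7. Among 446 miRNAs tested, 9.64% lay above it in at least 6 mice. The bar of mouse 3334 is that of month 6.

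Marker lists differed in the last CM libraries too, where 39.0% of all miRNAs were called. The platelet and endothelial list summed to 351.0 to 7553 CPM against 176.3 to 296.8 CPM at month 0 with 2 of 3 tested members higher and 1 lower, the lymphocyte list to 9572 to 58530 CPM against 29800 to 69760 CPM with 3 of 4 members lower, and the myeloid list to 2016 to 6308 CPM against 5390 to 39990 CPM with 1 of 2 members lower. The erythroid list summed to 29300 to 83100 CPM against 40490 to 136200 CPM, with 2 of 5 members higher and 1 lower. In the 3 mice with miR-21a-3p above 80 CPM, miR-126a-3p, a miRNA of endothelium, platelets and stem cells, was at 1861 to 4584 CPM. In mice 3336 and 3357, with 54.5 and 50.8 CPM of miR-21a-3p, it was at 1412 and 1377 CPM. In the 2 mice with the lowest miR-21a-3p, 3368 and 3370, it was at 217.8 and 464.1 CPM. The authors reported that CM itself raises miR-126, so a rise of the platelet and endothelial list does not mark those cells alone. The part of these lists in the level of either strand was not tested.

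A list of 12 miRNAs known from inflammation and interferon responses was set beside miR-21a. Of those tested, 0 of 11 were called at month 0, 2 were lower in CM at month 1, 1 was lower at month 2 and 1 at month 3, and 0 of 11 were called at months 4, 5 and 6. In either direction, over all miRNAs 27.5%, 13.5% and 22.0% were called at months 1 to 3. miR-147-3p, a brake on Toll-like receptor signalling, was the only one called in more than 1 month, lower in CM by a log2 fold change of -1.84 ± 0.50 at month 1 and -1.41 ± 0.38 at month 2 (edgeR adjusted p = 0.0164 and 0.0228). Its change in the last CM libraries was -1.48 ± 0.43 (edgeR adjusted p = 0.0138), while miR-132-3p and miR-212-3p, cut from 1 primary transcript, rose by 3.32 ± 0.63 and 3.51 ± 0.83 (adjusted p = 0.00159 and 0.00526). Of the 10 members of the list tested there, 2 were called higher and 1 lower, where 39.0% of all miRNAs were called. The median fold change of the list there was -0.32, beside -0.06 over all miRNAs tested. The median fold change of the list at month 1 was -0.17, beside -0.10 over all miRNAs tested. miR-21a-5p, which is not a member of the list, was called with it in no month.

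Over all training libraries and 331 miRNAs with a mean of 10 CPM or more, the levels most like miR-21a-5p on the log2 scale were those of miR-101b-3p (Pearson r = 0.52), miR-18a-5p (0.48), miR-20a-5p (0.47), miR-29a-3p (0.47) and miR-30d-5p (0.47). The least like were miR-423-5p (-0.55), miR-25-5p (-0.40) and miR-296-5p (-0.40). The 2 strands of the hairpin had an r of 0.42 with each other. By ranks the order differed, as the strands had a Spearman rho of 0.46 while the 5 miRNAs most like miR-21a-5p by Pearson r had 0.273 to 0.353. For miR-21a-3p the highest values were those of miR-425-5p (0.61), miR-674-3p (0.60), miR-700-3p (0.59), miR-31-5p (0.57) and miR-126a-5p (0.53), and the lowest were the lymphocyte miR-342-5p (-0.54), miR-200c-3p (-0.53) and miR-1895 (-0.51). The libraries share mice, months and a common total, so these are descriptions without a test.

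**Figure D4:**
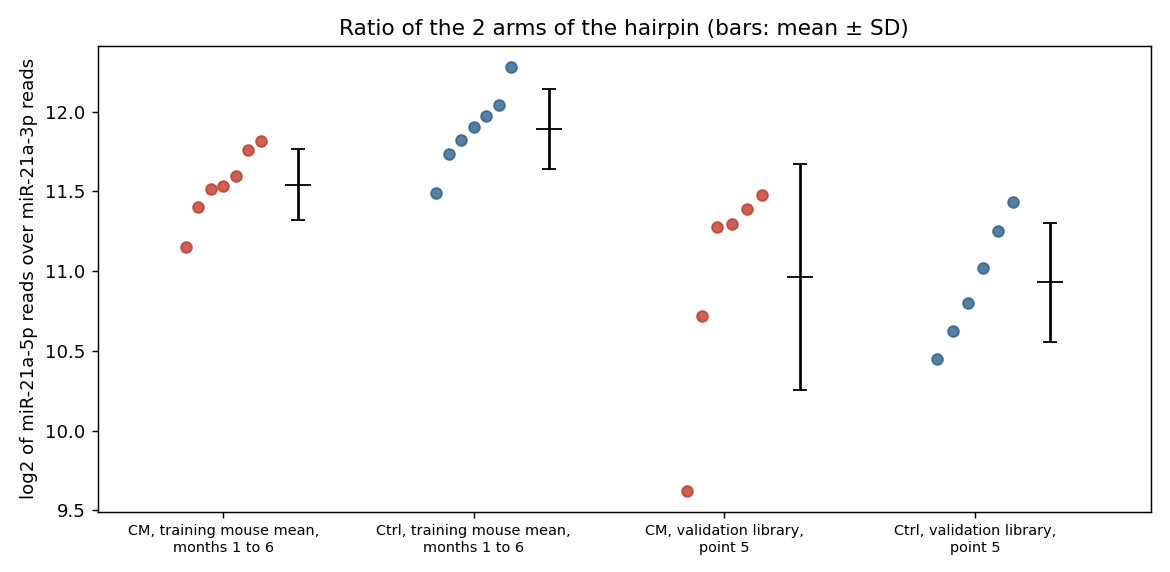
Log2 of miR-21a-5p reads over miR-21a-3p reads (vertical axis) as the mean over months 1 to 6 of each training mouse and in each validation library of point 5, by arm, with bars for mean ± SD beside the points. Training CM mice average 11.54 and Ctrl mice 11.89, and at point 5 the arms average 10.96 and 10.93 with 1 CM library at 9.62.

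In the validation cohort only point 5 had the depth to measure both strands, with 6 CM and 6 Ctrl libraries. miR-21a-5p held 4.98% to 10.1% of reads in CM (median 7.02%) and 5.55% to 9.25% in Ctrl (median 6.07%), from 81879 to 523569 reads per library. On the deposited scale, whose columns have no common sum, its medians were 939400 in CM and 623200 in Ctrl. The arms overlapped, with a difference of 0.16 ± 0.37 on the log2(value + 1) scale (limma-trend adjusted p = 0.982), and neither strand was called, as 0.0% of 930 miRNAs were.

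miR-21a-3p had 48, 72, 94, 120, 152 and 663 reads in the 6 CM libraries and 84 to 175 reads in the Ctrl libraries (median 148). The library with 663 reads, of mouse 2684, stood at 1840 on the deposited scale against 176.1 to 453.9 in the other CM libraries, and also had the most miR-21a-5p. The difference between the arms was 0.12 ± 0.44 (limma-trend adjusted p = 0.982). The log2 strand ratio was 10.96 ± 0.71 in CM and 10.93 ± 0.37 in Ctrl (SD, n = 6 and 6), a difference of 0.04 (exact two-sided permutation test, p = 0.933). Without mouse 2684 the difference was 0.30, opposite in sign to that of the training mouse means.

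At points 1 to 4, 6 and 7 each library held 0 to 10 reads of miR-21a-5p and 0 to 2 of miR-21a-3p. A difference of ordinary size was not detectable at this depth, and the test called miR-21a-5p at none of these 6 points (limma-trend adjusted p = 0.862 to 0.987, with 0.0% of miRNAs called except at point 2, where 2.78% were). The limit that a count of 0 allows is 3 reads. Most reads of these libraries were of miR-5099.

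The CM libraries labelled L, 5 in number, held 17, 32, 34, 35 and 1020 reads of miR-21a-5p in totals of 2547 to 16945 reads, and the library with 1020 reads was that of mouse 2719. All 5 exceeded the 1 to 8 reads of the 10 CM libraries of point 1, whose totals, mostly miR-5099, were 23946 to 61152. Reads other than miR-5099 were fewer at point 1, at 476 to 1298, than at point L, at 1312 to 4016. The difference of L from point 1 was fitted over the 5 mice with an L library, at both points. It was 3.15 ± 0.79 on the log2(value + 1) scale (limma-trend adjusted p = 0.0103), with 18.1% of 166 miRNAs called. Without mouse 2690 it was 3.13 and just missed the threshold (limma-trend adjusted p = 0.0504). With miR-5099 left out and libraries rescaled to the rest it was 2.30 ± 0.79 and was not called (adjusted p = 0.0705). miR-21a-3p was at 0 reads in 4 of these libraries and at 2 in the library of mouse 2731.

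**Figure D5:**
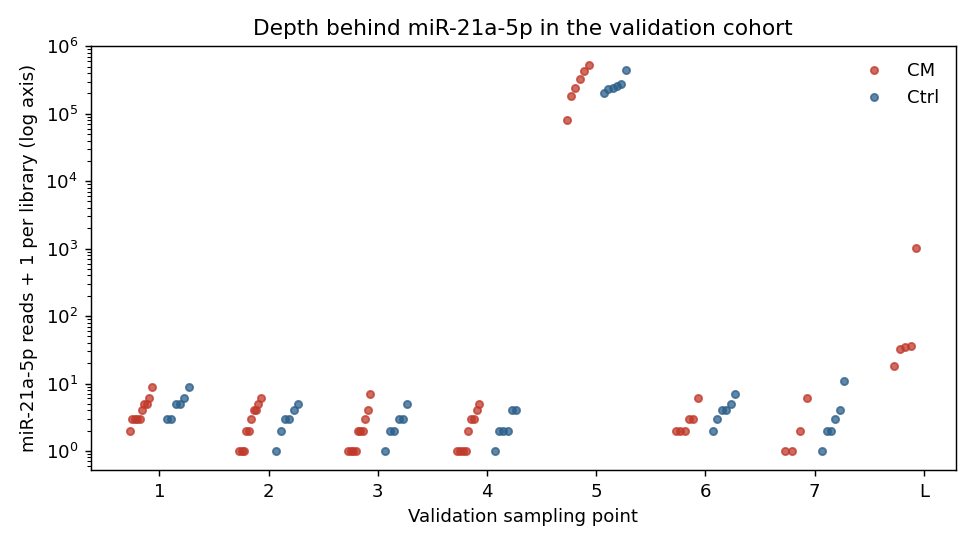
Reads of miR-21a-5p plus 1 in each validation library (vertical axis, log scale) by sampling point (horizontal axis) and arm. The 12 libraries of point 5 lie between 81879 and 523569 reads, those of the other numbered points between 0 and 10, and the 5 CM libraries labelled L between 17 and 1020.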

How the data were processed

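Small RNA libraries of PBMC RNA were made by the authors with ligated adapters. The authors' methods name cutadapt for trimming, Bowtie and mm9 for alignment and miRBase for the mature miRNAs counted, while the processing notes in the labels name GRCm38. The training count table holds the authors' deposited read counts per mature miRNA. The CPM tables of both cohorts hold normalized signal values that the authors deposited after edgeR scaling. Every column was a whole multiple of 1 read (100% of values above 0, tolerance 0.01), so reads were recovered. No 2 libraries were identical.

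From the counts, CPM with TMM scaling was computed, and edgeR 4.0.16 (quasi-likelihood test, filterByExpr, Benjamini-Hochberg over all miRNAs tested, threshold 0.05) compared the arms at each month with the libraries of that month. The SE is the log2 fold change over the square root of F. Validation values were tested by limma 3.58.1 (trend) as log2(value + 1). A miRNA entered a comparison when its value reached 1 in enough libraries to fill the smaller group. Mouse means and slopes used exact permutation tests, with intervals of the shifts not rejected, and the strand ratio had 0.5 added to each count. Alternatives were DESeq2 1.42.0, other filters, scalings and covariates, the deposited table, and leaving out mice.

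A mouse pairs its own libraries over time. The deviations of same-mouse libraries from their group means had a median r of -0.145 (Ctrl, month 1), 0.118 (CM, month 1), -0.051 (Ctrl, month 6) and -0.043 (last CM) with month 0. Mouse numbers were taken to stand for separate animals, which is in doubt for mice 3334 and 3335. Named miRNAs were both strands in every comparison, the near copies, members of the inflammatory list called in at least 2 of months 1 to 6, and the 5 highest and 3 lowest correlations with each strand. The miRNAs, lists and tests were chosen with earlier results of these data known, and miR-132-3p, miR-212-3p, let-7i-5p, miR-451a and miR-126a-3p were named after their values were seen. Tests were checked on simulated data. Of the mature names in the counts, 1589 of 1863 had a RefSeq sequence.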

Additional observations from a re-analysis of the deposited data

Results flagged for a closer look

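Within groups of 4 to 10 libraries, a gap test (Dixon, 95% level) was run on 61 sets of values and set apart 12, where chance alone gives about 1 in 20. In the training CM mice it set apart miR-21a-3p of mouse 3338 at month 2 (60.7 CPM, others 23.96 to 34.59) and at month 4 (83.5 CPM, others 38.98 to 52.98), and of mouse 3341 at month 6 (84.6 CPM, others 30.3 to 36.9). For mouse 3341 the log2 strand ratio of month 6 was also apart (10.71, others 11.72 to 11.88), as was that of mouse 3370 at month 5 (12.31, others 11.49 to 11.71). miR-21a-5p was apart in CM mouse 3334 at month 3 (59520 CPM, others 121600 to 143800), in Ctrl mouse 3335 at month 3 (92910 CPM, others 117900 to 136800) and in Ctrl mouse 3349 at month 2 (36250 CPM, others 112100 to 151000), where the log2 strand ratio was 9.84 against 11.71 to 12.49.

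In the validation cohort the values apart were miR-21a-3p of CM mouse 2684 at point 5 (1840, others 176.1 to 453.9 on the deposited scale) and of Ctrl mouse 2720 at point 5 (249.0, others 355.8 to 411.3), and miR-21a-5p of CM mouse 2719 at point L (17220, others 639.9 to 967.3).

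The 10 CM libraries of months 6.5 to 10 enter no monthly comparison, and only high values were flagged among them. Values below every Ctrl library were not flagged. Mouse 3336 at month 6.5 held such values, miR-21a-3p at 13.8 CPM and miR-21a-5p at 65860 CPM (Ctrl of month 6 from 19.48 and 91740). So did miR-21a-5p of mouse 3336 at month 7 (109800 CPM, Ctrl from 116100) and of mouse 3368 at month 9 (119100 CPM, Ctrl from 121200). Above every Ctrl library of the month lay 6 values. These were miR-21a-3p of mouse 3334 at month 6.5 (81.7 CPM, Ctrl 19.48 to 43.01), of mouse 3336 at month 7 (54.5 CPM, Ctrl 21.1 to 37.8), and of mouse 3368 at months 7 (45.6 CPM, Ctrl 21.1 to 37.8) and 10 (37.3 CPM, Ctrl 18.6 to 32.2), and miR-21a-5p of mouse 3334 at month 6.5 (194200 CPM, Ctrl 91740 to 153500) and of mouse 3368 at month 10 (179400 CPM, Ctrl 84310 to 150800).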

How the results depend on the processing

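Of 331 values under alternatives other than leaving out 1 mouse, 284 kept their direction and side of the threshold. The alternatives on recovered reads, the sign-flip test, the count of last libraries without mice 3334 and 3335 and the interactions of months 3 and 4 were chosen after seeing the data. For miR-21a-3p, the month 1 fold change of -0.01 turned to 0.0618 with DESeq2, 0.11 with the G number, 0.0418 without the erythroid list, 0.0706 unfiltered, 0.00976 on recovered reads, 0.0976 with sex and 0.00289 without mice 3334 and 3335, that of month 2 to -0.0432 with sex, and that of month 6 to -0.0648 with the G number. At month 3 it was 0.57 with DESeq2, 0.61 on recovered reads and 0.67 without mice 3334 and 3335 (all called) and -0.36 with the G number. At month 4 it was 0.72 in 1 fit of all libraries and 0.76 in the deposited CPM (both called).

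For miR-21a-5p, monthly fold changes near 0 turned to -0.0226 (deposited CPM) and -0.0149 (recovered reads) at month 0, to -0.0102 (1 fit), -0.00105 (at least 10 counts) and -0.00315 (recovered reads) at month 2, to -0.00674 (DESeq2), -0.77 (G number), -0.0524 (1 fit), -0.16 (deposited CPM), -0.0461 (unfiltered), -0.0592 (recovered reads) and -0.0566 (sex) at month 3, to -0.00683 (DESeq2), -0.00985 (1 fit) and -0.0707 (raw library sizes) at month 4, and to 0.0737 with T6p5 in place of T6. The value of month 3 with the G number rests on the only G number with both arms, whose only CM library was that of mouse 3334 (59520 CPM). The slope difference became 0.000423 over all months and 0.00828 in the deposited CPM. The month 4 interaction became -0.0406 without mice 3334 and 3335, and validation point 1 0.0605 without miR-5099. The change of miR-21a-5p in Ctrl at month 6 was called with DESeq2 (0.43), at least 10 counts (0.46) and without the erythroid list (0.46).

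In the last CM libraries miR-21a-5p was not called by the sign-flip test (0.35), with the mouse as a replicate block (0.49), unfiltered (0.35), with raw library sizes (0.32) or without mice 3334 and 3335 (0.35), and miR-21a-3p not by the sign-flip test (0.78) or unfiltered (0.84). The block changed no other call. Point L was not called without miR-5099 (2.30). All months in the mouse means called the ratio (-0.40) and miR-21a-3p (0.30).

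Leaving out 1 mouse moved miR-21a-3p over -0.19 to 0.14, -0.10 to 0.24, 0.49 to 0.71, 0.51 to 0.93, -0.23 to 0.0410 and -0.0249 to 0.56 at months 1 to 6, -0.32 to 0.35 at point 5, 0.86 to 1.13 in the last CM libraries and 0.15 to 0.31 in the mouse mean. For miR-21a-5p the ranges were -0.15 to 0.13, -0.0321 to 0.13 and -0.11 to 0.0834 at months 2 to 4, -0.40 to 0.12 at point 1, -0.0180 to 0.44 at point 5, 2.42 to 3.56 at point L, 0.35 to 0.55 in Ctrl at month 6, 0.35 to 0.57 in the last CM libraries and -0.0429 to -0.0225 in the slope. The ratio took values of -0.0674 to 0.30 at point 5, and of -0.42 to -0.29 as the mouse mean.

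Counts of all miRNAs called moved by over 1.5 times, from 130 at month 1 to 10 to 156, from 65 at month 2 to between 0 and 1.95 times that count, from 100 at month 3 to 6 to 144, from 4 at month 4 to 0 to 70, and from 0 at months 5 and 6 to as many as 53 and 19. At months 5 and 6, 21.6% and 6.98% of miRNAs had an unadjusted p under 0.05. The G number could not be fitted at month 4. Low counts of miR-21a-3p and depth in the validation cohort limit these results. The causes of these shifts were not tested.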
